A study of Mus musculus with 18 samples.

Results

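Chemokines are small secreted proteins that guide migrating cells, and their receptors are G protein-coupled receptors on the cells that follow them. In T cells the set of receptors tells where a cell can go: Ccr7 admits naive and central memory cells to lymph nodes, Cxcr3 and Cxcr6 are carried by type 1 and effector memory cells, Ccr4 and Ccr8 by skin-homing, type 2 and regulatory cells, Ccr6 by interleukin 17-producing and regulatory cells, and Cxcr5 by follicular helper cells. The genes described here are every symbol of the deposited RNA table that begins with Ccl, Cxcl, Ccr or Cxcr and a digit, with Cx3cr1, Cx3cl1, Xcl1 and Xcr1. There were 59, of 23234 symbols in all: 20 receptor genes and 39 chemokine genes. A mean of at least 0.5 FPKM (fragments scaled by transcript length and by the mapped total of the library) over the libraries was reached by 27 of them, 15 receptors and 12 chemokines, and only those were tested.

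The study concerns G9a (gene Ehmt2), which methylates lysine 9 of histone H3. Sequencing was done on RNA of C57BL/6 mouse T cells taken from spleen and lymph nodes 4 weeks after they began to expand in lymphopenic surroundings. The 10 libraries were CD4+CD8+ G9a KO cells (KO DP, 4 libraries), CD4–CD8+ G9a KO cells (KO SP, 2 libraries) and CD4–CD8+ G9a WT cells (WT SP, 4 libraries). H3K9me3 ChIP-seq was done with 2 libraries of Ehmt2+/+ and 2 of Ehmt2-/- spleen CD8+ T cells grown in culture with antibodies to CD3 and CD28, so the chromatin and the RNA come from differently treated cells. The labels give neither the deleted exons, nor the promoter of any Cre, nor ages, nor which libraries share an animal, and no WT CD4+CD8+ library is among the samples used here. Where nothing says that libraries come from separate animals, p-values measure only the spread between these libraries.

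The summed FPKM of the libraries ran from 183632 to 504013, with KO DP 3 (292872) and KO DP 4 (183632) the lowest, and read depth itself is not given in the files. Relative depth was estimated from the ratios of low FPKM values, with KO SP 1 set to 1. It was 0.8 to 1.57 in the other libraries, and 1.19 and 1.14 in KO DP 3 and 4. Genes of olfactory receptors (1118), proteins of the nose, averaged 0.149 and 0.227 FPKM in those same 2 libraries and at most 0.0210 in the others. Ehmt2 itself was at 20.9, 23.6, 12.8 and 7.28 FPKM in KO DP 1 to 4, at 12.6 and 13.6 in KO SP and at 18.1, 42.6, 26.99 and 21.5 in WT SP, so KO DP and WT SP overlapped. A value over the whole gene does not check a deletion whose exons are not given. Cd4 was between 49.4 and 178 FPKM in KO DP and at most 0.495 in the other libraries, as the sort labels state. Sample titles carry numbers in 2 ranges, 34 to 37 (KO DP 1 and 2, WT SP 1 and 2) and 738 to 741 (the others), whose meaning the labels do not give. Erythroid and platelet markers summed to between 392 and 953 FPKM in the 4 libraries of titles 34 to 37 and to at most 48.4 in the others.

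The bases just upstream of the transcription start are shown for the 4 receptor genes with the largest rises in KO DP. The H3K9me3 results below are given by distance from annotated starts, which for Ccr6 are not all among those shown. The sequences are RefSeq's on GRCm38.p6, 250 bases each, 5′ to 3′ on the gene's strand and ending at the base before the start. Capitals mark a match, on either strand, to one of 4 motifs. The letters AGGTCA are bound by nuclear receptors, TGANTCA by AP-1 factors, GTAAACA by FOXO factors and AGATAA by GATA factors. These motifs do not share letters at any match shown. The first lies at chr17:8235793-8236042 (+), the second, from the other annotated Ccr6 start, at chr17:8242276-8242525 (+), and those of Ccr4, Ccr8 and Ccr1 at chr9:114496545-114496794 (-), chr9:120091883-120092132 (+) and chr9:123968693-123968942 (-).
Ccr6 start 1: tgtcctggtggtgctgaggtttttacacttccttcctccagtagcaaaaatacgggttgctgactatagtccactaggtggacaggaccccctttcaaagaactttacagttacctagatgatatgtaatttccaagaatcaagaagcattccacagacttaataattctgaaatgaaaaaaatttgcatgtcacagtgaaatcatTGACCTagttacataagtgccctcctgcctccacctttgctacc
Ccr6 start 2: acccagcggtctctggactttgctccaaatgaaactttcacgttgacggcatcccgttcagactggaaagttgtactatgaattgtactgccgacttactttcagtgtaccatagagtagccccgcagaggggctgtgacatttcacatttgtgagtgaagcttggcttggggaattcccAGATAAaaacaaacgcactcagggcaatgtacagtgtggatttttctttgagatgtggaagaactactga
Ccr4: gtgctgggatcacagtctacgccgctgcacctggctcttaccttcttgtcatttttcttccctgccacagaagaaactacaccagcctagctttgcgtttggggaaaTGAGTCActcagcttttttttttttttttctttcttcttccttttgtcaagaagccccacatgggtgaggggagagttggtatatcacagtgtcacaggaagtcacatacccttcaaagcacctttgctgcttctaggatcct
Ccr8: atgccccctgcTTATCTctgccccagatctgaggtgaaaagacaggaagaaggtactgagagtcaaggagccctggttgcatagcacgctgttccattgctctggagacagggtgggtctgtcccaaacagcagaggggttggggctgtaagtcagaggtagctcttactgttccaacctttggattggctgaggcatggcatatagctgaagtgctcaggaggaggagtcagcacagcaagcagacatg
Ccr1: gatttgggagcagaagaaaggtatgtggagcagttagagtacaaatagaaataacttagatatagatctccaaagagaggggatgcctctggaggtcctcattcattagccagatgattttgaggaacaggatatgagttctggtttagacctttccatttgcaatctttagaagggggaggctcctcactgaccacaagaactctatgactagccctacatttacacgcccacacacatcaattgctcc
The first Ccr6 start has a nuclear receptor match on the opposite strand from base -44, counted from the start, and the second has a GATA match from -70. Ccr4 has an AP-1 match from -143, Ccr8 a GATA match on the opposite strand from -239, and Ccr1 none. Of 32851 promoter windows of this length, 14.0% hold the nuclear receptor letters, 6.75% those of AP-1, 3.17% those of FOXO and 9.99% those of GATA, so a match is a description of the letters and no sign of binding.

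**Figure D1:**
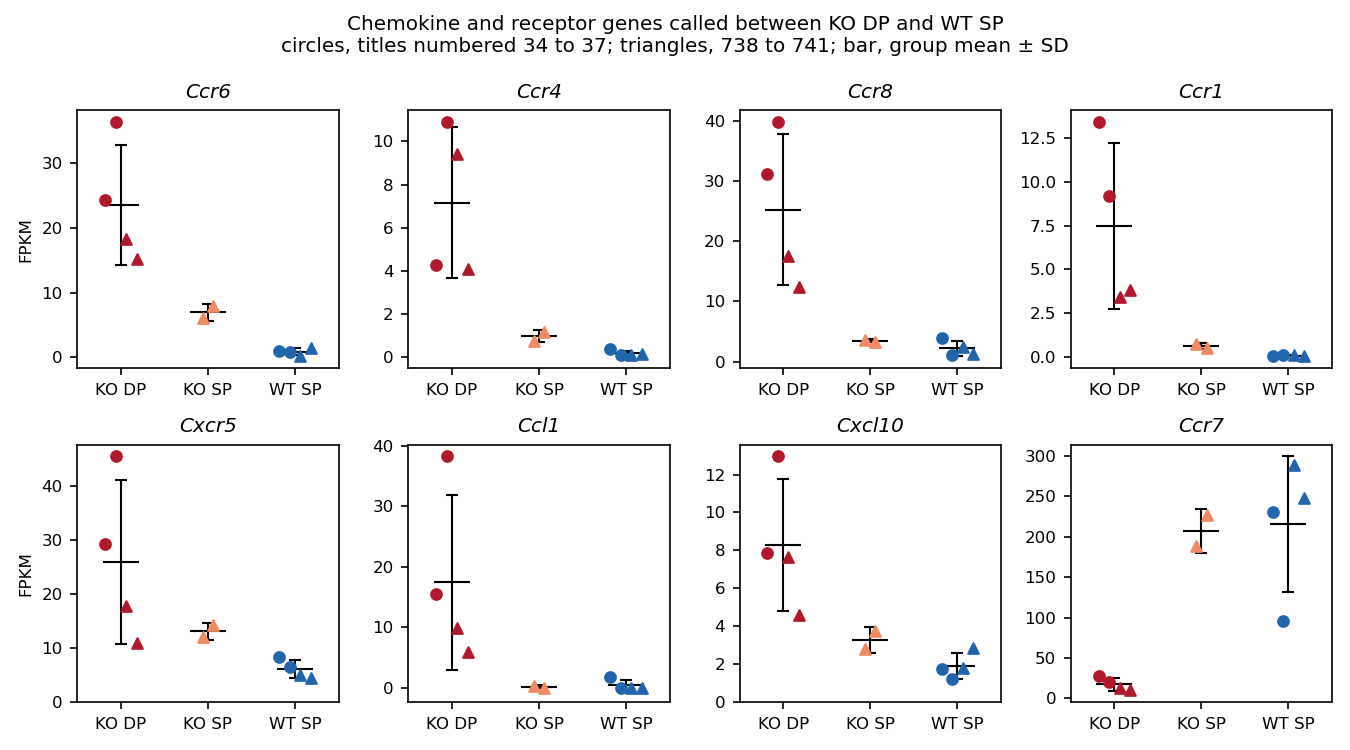
FPKM (y axis, linear) of the 8 chemokine and receptor genes called between KO DP and WT SP, in each library, with circles for titles 34 to 37, triangles for 738 to 741 and a bar for the group mean ± SD (n = 4, 2 and 4). KO DP lies above WT SP in every library for 7 genes and below it for Ccr7, where the highest KO DP value is 27.3 and the lowest WT SP value 95.4.

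KO DP and WT SP cells differed in the RNA of 6 of the 15 receptor genes tested. Ccr6, Ccr8, Ccr1, Ccr4 and Cxcr5 rose, Ccr7 fell, and the chemokine genes Ccl1 and Cxcl10 rose. Of the 27 tested genes 7 were higher in KO DP and 1 was lower by limma with an adjusted p under 0.05, which is 29.6% of them, against 7.89% of all 11162 genes tested. By direction the background was 2.86% higher and 5.03% lower. The median log2 difference was 0.32 over the 27 genes and -0.38 over all genes tested. After scaling the libraries by median-ratio size factors, which moved the median of all genes to -0.04, that of the 27 was 0.60, and 9 were higher and 1 lower, or 37.0% beside a background of 18.0% (9.20% higher and 8.82% lower). The 2 added genes were Ccl8 and Xcr1. The groups did not overlap for 8 genes higher in KO DP, the 7 called and Xcr1 (background 3.40%), and for Ccr7 alone lower (13.1%). All differences that follow are on the log2(FPKM + 1) scale, which understates changes of low genes, and adjusted p-values are limma's with Benjamini-Hochberg adjustment.

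Ccr6, the receptor for Ccl20, was at 24.3, 36.3, 18.3 and 15.3 FPKM in KO DP 1 to 4. It was at 6.03 and 7.87 in KO SP and at 1.02, 0.820, 0.174 and 1.43 in WT SP. The 3 groups were ordered KO DP, KO SP, WT SP with no overlap between neighbours. KO DP exceeded WT SP by 3.70 ± 0.32 (SE, adjusted p = 5.08e-05, higher in 4 of 4 libraries), by 4.00 within titles 34 to 37 and by 3.39 within 738 to 741.

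Ccr8, the receptor for Ccl1, was at 31.2, 39.8, 17.6 and 12.5 FPKM in KO DP, 3.67 and 3.32 in KO SP, against 3.97, 1.17, 2.35 and 1.24 in WT SP. KO SP lay within the WT SP range, and both lay below every KO DP library. The excess over WT SP was 2.996 ± 0.39 (adjusted p = 0.000985), 3.46 within titles 34 to 37 and 2.53 within 738 to 741.

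Ccr4, the receptor for Ccl17 and Ccl22, was at 4.26, 10.9, 9.41 and 4.08 FPKM in KO DP, 0.774 and 1.18 in KO SP, against 0.375, 0.0899, 0.110 and 0.135 in WT SP. The 3 groups did not overlap. KO DP exceeded WT SP by 2.69 ± 0.31 (adjusted p = 0.000399), and by 2.69 and 2.70 within the 2 title ranges.

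Ccr1, a receptor for Ccl3 and Ccl5 that is best known from myeloid cells, was at 13.4, 9.21, 3.44 and 3.83 FPKM in KO DP, 0.761 and 0.505 in KO SP, and between 0.0265 and 0.0884 in WT SP. Its KO DP excess over WT SP was 2.82 ± 0.35 (adjusted p = 0.000746), 3.50 within titles 34 to 37 and 2.14 within 738 to 741. Macrophage and monocyte markers (12 of 13 listed were in the table, none at 0 throughout a group, and none of the 11 tested was called) summed to 258, 180, 19.9 and 21.1 FPKM in KO DP 1 to 4 and to 87.9, 189, 21.7 and 38.3 in WT SP 1 to 4, and their part in the Ccr1 value was not tested. Ccr1l1, the neighbouring Ccr1-like gene, stayed under the level tested, at 0.427 to 1.01 in KO DP and at most 0.102 in the other libraries. Reads of these similar genes could be split between them, so the value of the low one is uncertain.

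Cxcr5, the receptor for Cxcl13, was at 29.3, 45.6, 17.8 and 11.0 FPKM in KO DP, 12.0 and 14.3 in KO SP, against 8.32, 6.57, 5.09 and 4.53 in WT SP. KO SP overlapped with KO DP and lay above WT SP. KO DP exceeded WT SP by 1.77 ± 0.39 (adjusted p = 0.0196). The call was lost without WT SP replicate 3 (adjusted p = 0.0705) or replicate 4 (0.0666), and values within the title ranges were 2.16 and 1.37.

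Ccr7, the receptor for Ccl19 and Ccl21, went the other way. It was at 27.3, 19.8, 12.5 and 9.72 FPKM in KO DP, 188 and 227 in KO SP, against 230, 95.4, 289 and 247 in WT SP. KO SP lay within the WT SP range, and KO DP lay far below both. It fell by 3.55 on the log2 scale ± 0.40 (adjusted p = 0.000399), by 2.62 within titles 34 to 37 and by 4.48 within 738 to 741. After scaling it fell by 3.16. The ratio of Ccr7 to Ccr6 within a library, which no scaling changes, was 1.12, 0.546, 0.684 and 0.636 in KO DP, 31.2 and 28.8 in KO SP, against 226, 116, 1670 and 172 in WT SP. The WT SP 3 ratio rests on a Ccr6 level of 0.174 FPKM. Both genes were called in opposite directions in these same libraries, so the ratio restates those differences and is not separate support.

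Among the chemokine genes, Ccl1, the ligand of Ccr8, was at 15.6, 38.3, 9.95 and 5.97 FPKM in KO DP, 0.369 and 0 in KO SP, against 1.84, 0, 0 and 0 in WT SP. KO DP and the other groups did not overlap. The fitted difference from WT SP was 3.52 ± 0.51 (adjusted p = 0.00186), a value that depends on the pseudocount because 3 of 4 WT SP libraries list the gene at 0. With a pseudocount of 0.1 it was 6.04.

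Cxcl10, an interferon-induced ligand of Cxcr3, was at 7.85, 13.0, 7.68 and 4.61 FPKM in KO DP, 2.79 and 3.77 in KO SP, against 1.75, 1.24, 1.82 and 2.87 in WT SP. KO DP was higher than WT SP by 1.62 ± 0.31 (adjusted p = 0.00916), with no overlap. Within the title ranges the values were 2.16 and 1.08.

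Within titles 34 to 37 alone (2 libraries against 2), Ccr6 (adjusted p = 0.0197) and Ccr1 (0.0226) were still called. Ccr8 was at 0.0523, Cxcr5 at 0.0502, Cxcl10 at 0.0647, Ccr4 at 0.0909, Ccl1 at 0.0941 and Ccr7 at 0.0991. All 8 kept their direction there and were called within 738 to 741. Within 738 to 741, 13 of the 27 were called, 7 higher and 6 lower, a range in which 56.0% of all genes were called, 6.93% higher and 49.1% lower. Within 34 to 37 the background was 1.47%. A block on the replicate number of the descriptions, which pairs KO DP with WT SP libraries, kept all 8 calls.

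**Figure D2:**
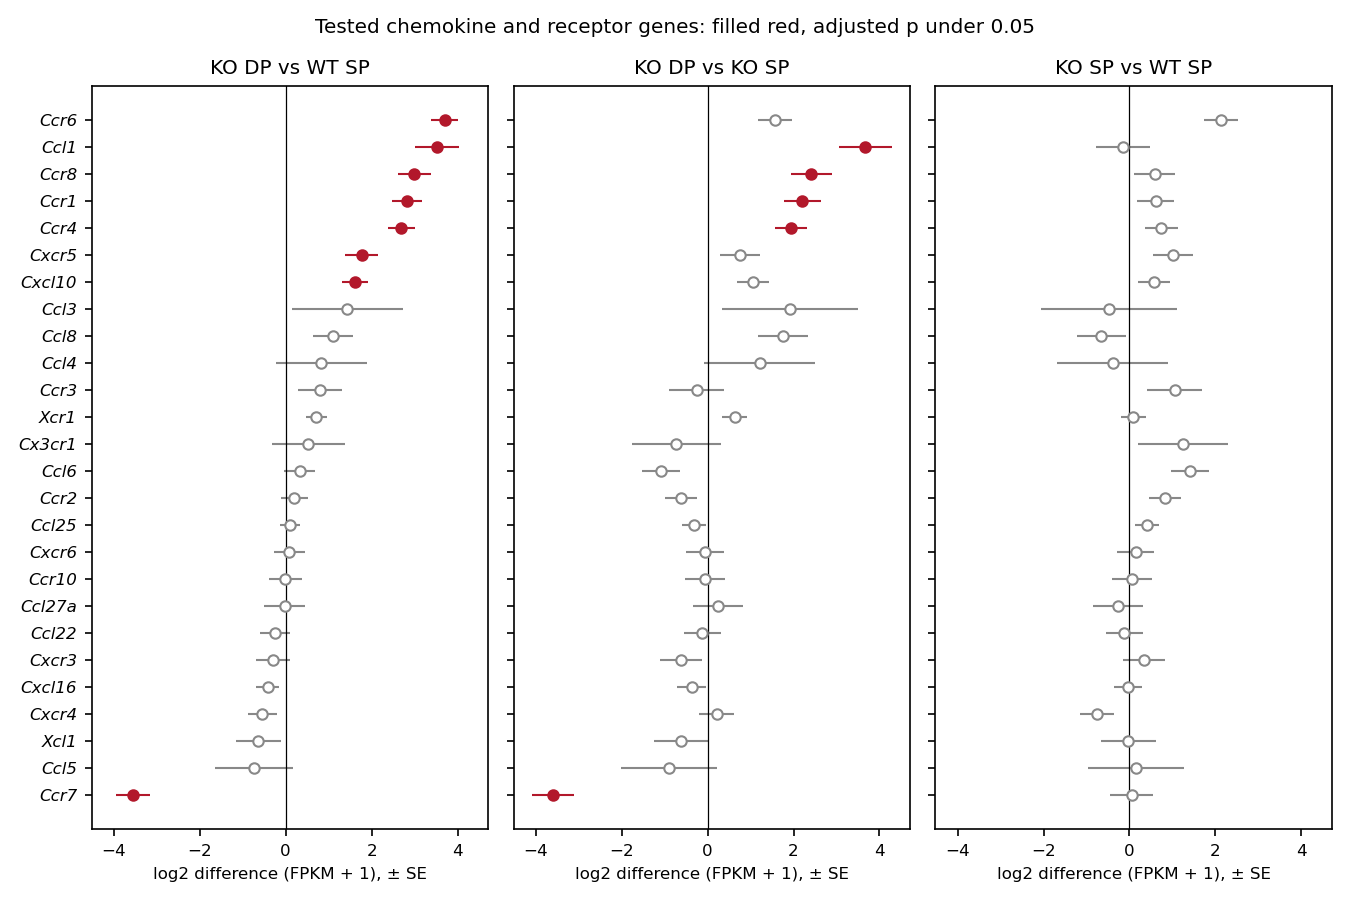
Log2 difference of FPKM + 1 (x axis, ± SE) of 26 of the 27 tested chemokine and receptor genes (y axis, ordered by KO DP vs WT SP) in the 3 comparisons. Filled red points have an adjusted p under 0.05: 8 in KO DP vs WT SP, 5 in KO DP vs KO SP and none in KO SP vs WT SP.

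The 2 receptor genes with the highest mean in every group were not called over the 10 libraries. Cxcr6, the receptor for Cxcl16, was at 546, 360, 252 and 193 FPKM in KO DP, 355 and 299 in KO SP, against 208, 310, 304 and 388 in WT SP. Cxcr3, the receptor for Cxcl9 and Cxcl10, was at 345, 337, 201 and 97.3 in KO DP, 356 and 319 in KO SP, against 274, 201, 355 and 262 in WT SP. KO DP spanned the WT SP range for Cxcr6. For Cxcr3 the groups overlapped, with WT SP 3 (355) above every KO DP library. Set against WT SP, KO DP differed by 0.08 ± 0.36 for Cxcr6 and -0.29 ± 0.40 for Cxcr3, and the sign of the latter turned after scaling (0.12). Within titles 738 to 741, Cxcr3 was called lower (-1.12, adjusted p = 0.0483), as were 49.1% of all genes there, but not after scaling in that range (-0.20, 0.465).

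Ccr2, a receptor for Ccl2, was at 62.3, 49.4, 43.2 and 30.0 FPKM in KO DP, 91.8 and 52.2 in KO SP, against 39.9, 42.3, 28.4 and 46.9 in WT SP. KO SP was above every WT SP library, and KO DP differed from WT SP by 0.20 ± 0.31. Cx3cr1, the fractalkine receptor of effector cells, varied by more within groups than between them, from 4.45 to 24.4 FPKM in KO DP, 9.34 to 34.8 in KO SP and 1.31 to 42.6 in WT SP.

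By mean level, Cxcr6 and Cxcr3 held the first 2 ranks of the 15 receptors in each group, and Ccr7 the third in KO SP (207 ± 27.5, SD, n = 2) and WT SP (216 ± 83.9, n = 4). In KO DP Ccr7 was eighth of 15 (17.3 ± 7.88, n = 4). Just above it in rank were genes that included Ccr6 (23.5 ± 9.31), Ccr8 (25.3 ± 12.5) and Cxcr5 (25.9 ± 15.1), which did not differ from each other beyond their spread. In WT SP, Ccr6, Ccr4 and Ccr1 were among the 4 lowest of the 15. The remaining receptors tested were low: Ccr10, Ccr3, Cxcr4 and Xcr1 reached at most 5.61 FPKM in any library. Xcr1, known from cross-presenting dendritic cells, was at 1.88 to 2.93 in KO DP and 0.524 to 1.52 in WT SP, and its call appeared after scaling (adjusted p = 0.0147). Dendritic cell markers, a list that includes Xcr1, summed to between 232 and 815 FPKM in KO DP and between 165 and 504 in WT SP, none of 10 being at 0 throughout a group, and their part in the Xcr1 value was not tested. The sums were largely Cd74, at 563 FPKM in KO DP 1, where the sum was 815. Itgax went the other way, at 1.99 to 5.95 FPKM in KO DP and 5.88 to 36.3 in WT SP, uncalled. After scaling 3 of the 7 tested genes of that list, with Xcr1 counted among them, were called higher and none lower. Of all genes, 9.20% were then called higher.

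**Figure D3:**
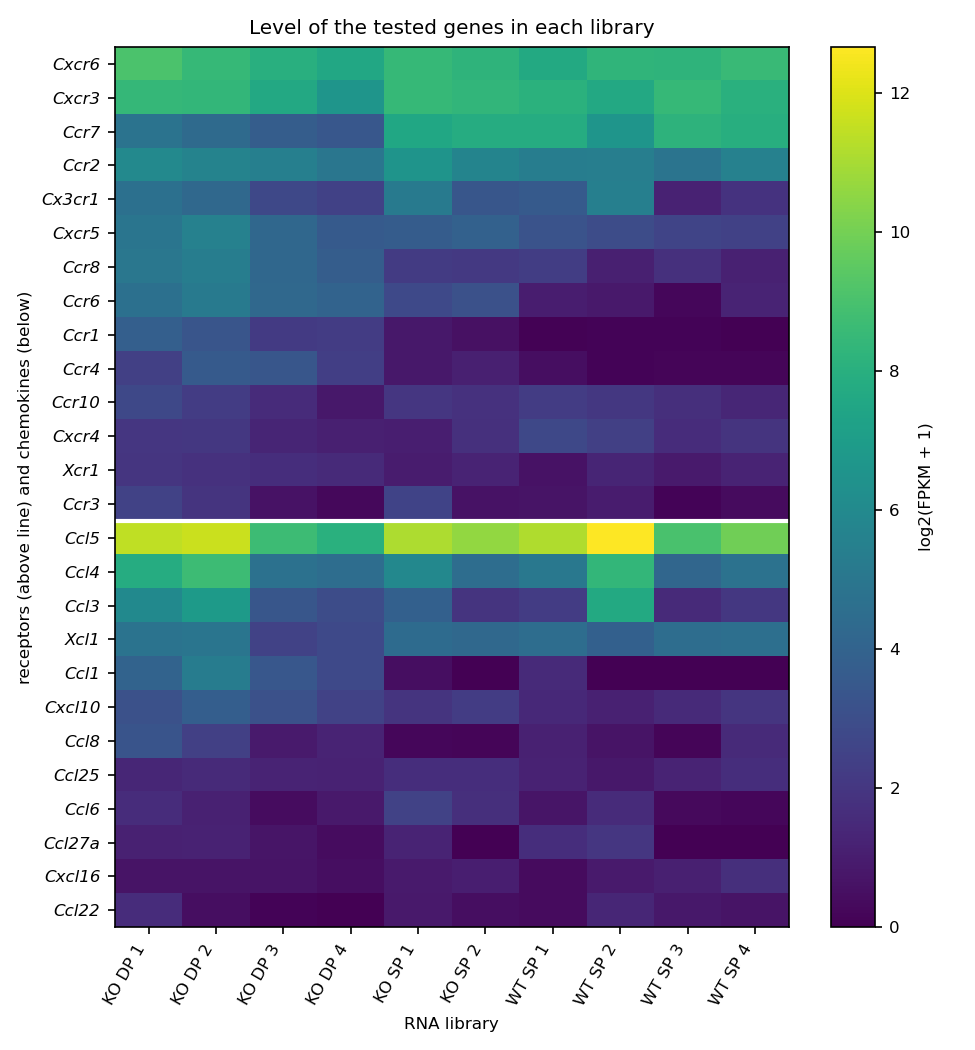
Colour scale of log2(FPKM + 1) for 14 of the 15 receptors (above the white line) and the 12 chemokines (below) that were tested, in each of the 10 libraries (x axis), ordered by mean level. Ccr7 is low in the 4 KO DP columns, Ccr6, Ccr8, Ccr1 and Ccr4 are high there, and Ccl5, Ccl4 and Ccl3 vary between libraries of the same group.

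Ccl5, which activated and memory CD8 T cells make and store, was the most abundant chemokine gene, at 2751, 3240, 409 and 259 FPKM in KO DP, 2178 and 1563 in KO SP, against 2249, 6477, 527 and 969 in WT SP. Its level followed the title range in both KO DP and WT SP, which overlapped (-0.74 ± 0.91, adjusted p = 0.571). In both KO SP libraries, whose titles are also within 738 to 741, Ccl5 was above every KO DP and WT SP library of that range. Against KO SP it was not called over the 10 libraries, but was lower with the range as a term (-2.31, adjusted p = 0.0265) and within titles 738 to 741 (-2.50, 0.00624, and -1.49, 0.0265, after scaling), settings that called 3.39%, 52.8% and 8.51% of all genes lower. Ccl3 and Ccl4, inflammatory chemokines of activated T cells, were as uneven. Ccl3 ran from 6.64 to 119 FPKM in KO DP and was at 3.70, 203, 1.88 and 3.20 in WT SP. Ccl4 ran from 21.7 to 408 in KO DP and was at 32.6, 334, 17.3 and 26.2 in WT SP, so that WT SP 2 was the high library for both. Xcl1, the ligand of Xcr1, was at 27.1 and 29.5 FPKM in KO DP 1 and 2, at 4.56 and 5.87 in KO DP 3 and 4, and at 13.7 to 24.0 in WT SP. Against WT SP it was not called over all libraries, and was called lower within titles 738 to 741 before scaling (-1.95, adjusted p = 0.00183) and after it (-1.13, 0.0314). The other chemokines tested, Ccl6, Ccl8, Ccl22, Ccl25, Ccl27a and Cxcl16, reached at most 8.65 FPKM, that of Ccl8 in KO DP 1, and none was called.

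The 32 genes under the level tested were 27 chemokines and the receptors Ccr9, Cxcr1, Cxcr2, Cxcr7 and Ccr1l1. Their highest single value was 1.19 FPKM for a chemokine and 1.01 for a receptor, and 1 gene, Cxcl14, was listed at 0 in every library. Of the 32, 19 had their highest value in KO DP 3 or 4, the libraries in which olfactory receptor genes were also highest. Ccl27b, Ccl19, Ccl21a, Ccl21b and Ccl21c each stand on more than 1 line of the table and have near-identical copies, so their low values are uncertain.

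By the roles listed for T cells, 4 of the 6 tested receptors of helper, regulatory, homing or follicular cells rose (median difference 2.23) and none fell. Of 6 receptors of type 1 and effector memory cells, Ccr1 alone rose (median 0.14), and of Ccr7 and Cxcr4 the first fell. Of 6 chemokines that activated T cells make, 2 rose (median 1.13). None of 4 tested myeloid chemokines or of 2 tested stromal or epithelial chemokines was called. These lists were written with results of these data known and are a grouping, not a test.

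Genes that lie downstream of the receptors or act on their genes were read from 3 further lists. Beside them, 2.86% of all genes tested were called higher and 5.03% lower. Of 23 G protein and effector genes, Tiam1, a Rac exchange factor, rose by 1.27 ± 0.26 (adjusted p = 0.0141) and Pik3r5, the adaptor of phosphoinositide 3-kinase gamma, fell by 1.79 ± 0.41 (0.0231). Of 12 regulators and atypical receptors, Rgs1, which shortens chemokine receptor signalling, rose by 1.85 ± 0.47 (0.0329). Of 20 transcription factors, 3 rose and 2 fell. Rora, a nuclear receptor, rose by 2.61 ± 0.45 (adjusted p = 0.00539). Tcf7 and Lef1, factors of naive and memory cells, fell by 1.46 ± 0.40 (0.0474) and 1.31 ± 0.37 (0.04999). After scaling, the counts were 1 higher and 4 lower, 1 and 3, and 6 and 5 in the same 3 lists. The share of all genes was then 9.20% higher and 8.82% lower.

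Foxp3, the regulatory T cell factor and another of the 3 that rose (adjusted p = 0.00188), was at 28.3, 19.8, 3.52 and 4.94 FPKM in KO DP and was listed at 0 in the 6 other libraries. Like Cd4, Ccr4, Ccr6, Ccr8 and Ccl1, it was higher in every KO DP library than in any other library. Within KO DP the order differed, as Ccr4 was at 4.26, 10.9, 9.41 and 4.08 FPKM in KO DP 1 to 4. Cd8a was at 262, 190, 154 and 70.0 FPKM in KO DP against 249 to 339 in WT SP, and Cd8b1 at 904, 691, 516 and 248 against 1180 to 1512. In bulk RNA, cells of another kind in the sort and a change within each cell cannot be told apart, nor can fewer cells and less RNA per cell. The part of CD4 T cells other than double-positive ones in these values was not tested. B cell markers summed to 22.3 to 56.3 FPKM in KO DP and 15.3 to 86.8 in WT SP, neutrophil markers to 0.805 to 5.77 and 0.355 to 5.80, NK cell markers to 3.43 to 12.8 and 4.21 to 41.4, and stromal markers to 6.79 to 14.2 and 16.02 to 25.6, with no gene of these lists called. The stromal sums were mostly Pecam1, at 5.94 to 13.5 FPKM in KO DP and 15.9 to 25.5 in WT SP. The other genes of that list reached at most 0.326 FPKM. After scaling Pecam1, the 1 tested stromal gene, was called lower, and none of the other 3 lists.

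KO DP cells were next compared with KO SP cells of the same genotype. Ccl1 (3.67 ± 0.62, adjusted p = 0.0118), Ccr8 (2.41 ± 0.48, 0.0263), Ccr1 (2.20 ± 0.43, 0.0252) and Ccr4 (1.95 ± 0.38, 0.0230) were higher in KO DP, and Ccr7 was lower (-3.60 ± 0.49, 0.00379). These were 18.5% of the 27 genes, against 2.07% of all genes tested, 0.421% higher and 1.65% lower. All 5 calls were lost when either KO SP library was left out, which leaves 1 KO SP library whose spread is taken from the other groups. Ccr6 differed by 1.56 ± 0.40 without passing (adjusted p = 0.0643), and passed after scaling (2.03, 0.00535), within titles 738 to 741 (1.17, 0.0271) and without KO DP replicate 4 (1.74, 0.0410). The 2 groups did not overlap for 8 genes higher in KO DP (background 4.44%) and 5 lower (35.5%). Within titles 738 to 741 the count was 13, 5 higher and 8 lower (background 55.9%, of which 3.06% higher and 52.8% lower), and after scaling it was 9, 8 higher and 1 lower (background 5.91%). The comparison shares its KO DP libraries with the one above.

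Between KO SP and WT SP, which differ in G9a genotype but share the CD4–CD8+ sort, none of the 27 genes was called by limma. At an unadjusted p under 0.05 there were 3, or 11.1%, beside 3.44% of all genes, and the adjusted calls over all genes were 13, or 0.116% (0.0717% higher and 0.0448% lower). The smallest p belonged to Ccr6, at 6.03 and 7.87 FPKM against 0.174 to 1.43, a difference of 2.13 ± 0.40 with an adjusted p of 0.108. It was called after scaling (1.97, 0.0322), within titles 738 to 741 (2.22, 0.0259) and with the range as a term (2.38, 0.0184). Cxcr5 differed by 1.01 ± 0.48 and Ccr4 by 0.75 ± 0.38, both with an adjusted p of 0.938. Ccr8 (0.58 ± 0.48), Ccr1 (0.62 ± 0.43) and Cxcl10 (0.57 ± 0.38) were higher by less than the threshold allowed. Ccr7 differed by 0.05 ± 0.49, with mean levels of 207 FPKM in KO SP and 216 in WT SP. No overlap between KO SP and WT SP was seen for 7 genes higher in KO SP, among them Ccl6, Ccr1, Ccr2, Ccr4, Ccr6 and Cxcr5, or 25.9% of the 27 beside a background of 21.1%. An effect called in KO DP and not in KO SP is shown to differ only for the 5 genes called between those 2 groups.

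H3K9me3, a mark of silenced chromatin, was examined at the 15 receptors that passed the RNA filter, using the authors' peak lists and the gene names and distances they carry (mm9). G9a itself is chiefly known for mono- and dimethylation of the same lysine. The lists held 85960 and 23304 peaks for WT 1 and WT 2 and 111149 and 154997 for KO 1 and KO 2, with mean scores outside satellites of 20.8, 25.3, 12.3 and 13.0. The scores are the authors' and their scaling between lists is not given in the sources used here. With 2 libraries against 2, no two-sided exact permutation test can go below p = 0.33, so the peaks are described without a test.

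Counting peaks at any distance, receptor genes were named for an H3K9me3 peak more often than all tested genes in every list. At least 1 peak was named for 12, 12, 11 and 12 of the 15 receptors in WT 1, WT 2, KO 1 and KO 2, or 80.0%, 80.0%, 73.3% and 80.0%. The share of all tested genes was 47.8%, 33.6%, 42.5% and 45.5%. The receptors lie in clusters (Cxcr6, Xcr1, Ccr1, Ccr1l1, Ccr3 and Ccr2 follow each other, as do Cx3cr1 and Ccr8), so their peaks are not independent. The peaks counted lie as far as -292851 bp from the start they are named for (Cxcr4, KO 2). A gene with few neighbours can therefore be named for distant peaks. The share of all tested genes with a peak within 10 kb was not computed. Whether the mark is more frequent at receptor genes themselves was not tested. The number of peaks was 46, 24, 33 and 35, of which 10, 7, 9 and 14 were named for Cxcr4. None was named for Ccr10 or Xcr1. Merged across lists they made 60 regions, 15 of them in all 4 lists.

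Of the 19 receptor regions found in both WT lists, 1 was in neither KO list, or 5.26%, beside 15.0% of such regions at all tested genes. Of 27 found in both KO lists, 3 were in neither WT list, or 11.1% beside 39.2%. Neither share was above that of all tested genes. The 1 region was at Ccr6, at chr17:8429355-8431799 (mm9), in intron 1 of 2 of the transcript NM_001190333. The peak of WT 1 was centred 1669 bp after the start and scored 73.6, and that of WT 2 was centred 1253 bp after it and scored 30.0. Ccr6 also had a region at chr17:8423576-8424542, centred at -4914 to -4670 bp from the same start, in all 4 lists (28.1, 11.0, 12.1 and 13.5). Another, at chr17:8455411-8457051, was in the KO lists only (6.80 and 17.7). Its distances of 18002 and 18308 bp are from the start of a different Ccr6 transcript, NM_001190338, so they cannot be set beside the others.

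**Figure D4:**
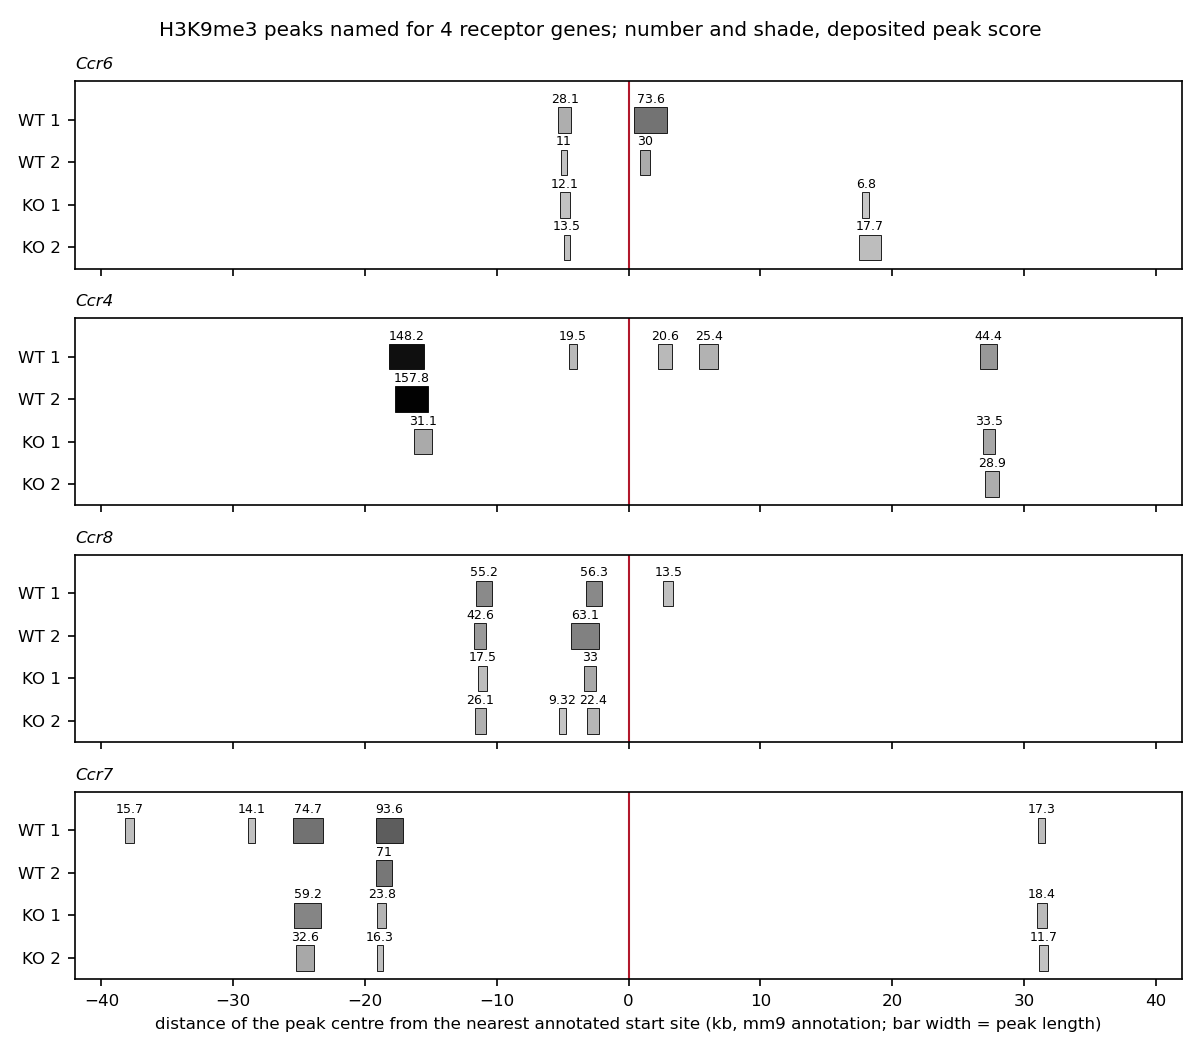
H3K9me3 peaks named for Ccr6, Ccr4, Ccr8 and Ccr7 in the 2 WT and 2 KO lists, by distance from the nearest annotated start in kb (x axis, mm9), with bar width for peak length and numbers and shade for the deposited score. At Ccr6 the peaks of 73.6 and 30.0 just after the start are in the WT lists and in neither KO list, while most peaks of Ccr8 and Ccr7 are in lists of both genotypes. The KO peaks of Ccr6 at 18002 and 18308 bp are drawn from the start of a different transcript than its other peaks.

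At Ccr4 the highest-scoring region, chr9:114420598-114423807, scored 148 in WT 1, 158 in WT 2 and 31.1 in KO 1 and was not in the KO 2 list. Its peaks are centred at -16827 to -15616 bp from the Ccr4 start, in exon 4 of 4 of Trim71, the neighbouring gene, so its Ccr4 name comes from distance alone. Within 10 kb of the Ccr4 start, 3 peaks were in the WT 1 list (19.5, 20.6 and 25.4) and none in the others. Ccr8 had a region centred at -3305 to -2591 bp in all 4 lists, at chr9:119996881-119999268 (56.3, 63.1, 33 and 22.4), and another at -11278 to -10981 bp (55.2, 42.6, 17.5 and 26.1). Both Ccr8 regions were therefore also listed in KO cells, with lower scores. The mean scores of the whole KO lists, given above, were lower as well, so a lower score at 1 region cannot be told apart from the scale of its list.

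Ccr1, with a rise in KO DP, had 1 peak, centred at -745 bp, in the WT 2 list (11.0). Cxcr5 had regions at -5395 to -5329 bp and at -22719 to -22694 bp in all 4 lists (52.5, 34.7, 36.9 and 15.4 for the nearer). Ccr7, with lower RNA in KO DP, had 5 regions, of which that at -18861 to -18175 bp was in all 4 lists (93.6, 71.0, 23.8 and 16.3). A pair of others were in WT 1, KO 1 and KO 2 and not in WT 2, with scores of 74.7, 59.2 and 32.6 at -24572 to -24334 bp and of 17.3, 18.4 and 11.7 at 31326 to 31482 bp. Cxcr3, whose RNA was not called, had 6 regions, and the highest-scoring, in all 4 lists, was 37491 to 38710 bp after its start (153, 55.2, 18.9 and 9.32). Regions with lower scores in both KO lists than in both WT lists were thus found at receptor genes whose RNA was higher, lower or not called in KO DP.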

How the data were processed

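Per the labels' protocols, RNA was amplified with SMART-Seq v4 and tagged with Nextera, which keeps no strand, so antisense partners share reads. The FPKM values deposited by the authors came from TopHat and Cufflinks with the mm9 build, as the submitters' processing notes name them. The peak lists, from Bowtie and HOMER on mm9 per the same notes, carry the authors' peak score, gene name and distance per the file headers, with 1 list per library. Versions, calling thresholds and how scores were scaled: not given in the sources used here. Absolute read depth is unknown.

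Repeated lines of a symbol (466) were added up. The filter kept 11162 genes averaging 0.5 FPKM or more across the RNA libraries. Differences were tested by limma 3.58.1 (R 4.3.3) with trended moderation, after adding 1 FPKM and taking log2, in a single fit of the 10 libraries without a block, and with Benjamini-Hochberg adjustment at 0.05 over all genes in each comparison. The fit was tested on simulated data with independent noise for each gene. No shift of a whole library was simulated, so that test does not cover the low sums of KO DP 3 and 4. Regions merge peaks of the 4 lists that overlap by any base. Python 3.11.15 with pandas 2.3.3 did the rest.

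The members and lists were chosen with earlier results of these data known. Genes were named with values if they were Ccr6, Ccr7, Ccr4, Ccr8 or Ccl5, were called in a comparison, or had a mean of at least 10 FPKM in a group. Of the pathway lists up to 4 called genes by smallest p were named. Genes outside that rule (Xcr1, Ccl8, Ccr1l1, Cxcl14, Lef1, Cd4, Cd8a, Cd8b1, Cd74, Itgax, Pecam1 and Ehmt2) were named for a count or a check. Results of some genes that the rule would name are not reported here and are left out of the figures, while counts cover them. Alternatives were other pseudocounts, filters and scaling, left-out libraries, a replicate block and the title ranges.

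Replicate numbers in the descriptions were checked for pairing. The correlation of deviations from group means over genes was 0.119, 0.293, 0.111 and 0.103 for the 4 KO DP and WT SP pairs. For pairs with KO SP it was 0.0166 and 0.0537 (KO DP) and -0.0339 and -0.11 (WT SP). Pairs of libraries of unlike number were not examined, so these values have no baseline. The numbers also cannot be told apart from the title ranges. These values therefore do not show pairing, and the block was run only as an alternative. KO DP and KO SP shared title numbers in 2 pairs (0.143 and 0.0908), too few to decide.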

Additional observations from a re-analysis of the deposited data

Results flagged for a closer look

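A difference between the title number ranges was seen for 6 of the 27 tested genes by limma's interaction term, in which the change from WT SP to KO DP within titles 738 to 741 is set against that within 34 to 37. Of these, 5 are given here, at -2.63 for Xcl1, -1.86 for Ccr7, -1.66 for Cxcr3, -1.44 for Cxcr6 and -1.37 for Ccr1 on the log2 scale. The 6 are 22.2% of the 27, beside 22.9% of all genes tested, and the 5 are negative. After median-ratio scaling, an alternative chosen after seeing the data, none of the 27 differed between the ranges by limma beside 0.314% of all genes, while 2 of them and 14.6% of all genes had an unadjusted p under 0.05. Size factors were 0.747 for KO DP 3 and 0.469 for KO DP 4 and at least 1.07 in the other libraries.

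A single WT SP library stood apart from the other 3 of its group for 4 genes. WT SP 2 had Ccl3 at 203 and Ccl4 at 334 FPKM. WT SP 1 had Ccl1 at 1.84 and Ccr4 at 0.375 FPKM. In 54 groups of 4 libraries examined, chance alone flags about 1 in 20. The calls of Ccl1 and Ccr4 held when WT SP replicate 1 was left out.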

How the results depend on the processing

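Of the 8 genes called between KO DP and WT SP, none changed direction under any alternative run. The count called among the 27 tested genes was 7 to 8 with 1 library at a time left out (2.87% to 11.4% of all genes). It was 13 within titles 738 to 741 (56.0%) and 2 within 34 to 37 (1.47%). Between KO DP and KO SP the count was 1 without a filter on low values (0.523% of all genes), 9 after scaling (5.91%), 8 with the title range as a term (4.19%), 8 with KO DP limited to replicates 1 and 2 (4.26%), and 13 within titles 738 to 741 (55.9%). It was 4 to 6 when 1 KO DP or WT SP library was left out (1.03% to 3.79%). The loss of the calls without either KO SP library, which leaves 1 in that group, is described above. With the range term and scaling together it was 10 (5.48%), and 11 within 738 to 741 after scaling (17.3%), both chosen after seeing the data. Between KO SP and WT SP it was 1 after scaling (0.179%), 2 with the range term (0.331%), 2 within titles 738 to 741 (0.97%), 1 there with scaling (0.647%), and 0 with any 1 library left out. The interaction count of 6 became 0 after scaling. The cause of these changes was not tested.

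With a replicate block on the description number all 8 calls between KO DP and WT SP held. Correlations of KO SP libraries by that number were at most 0.0537. With that block, Ccr6 was called between KO SP and WT SP (1.89, adjusted p = 0.0277, count 1) and between KO DP and KO SP (1.81, 0.0238). With a replicate block on the title number, for 2 pairs, 14 genes were called between KO DP and KO SP, 6 higher and 8 lower, where 3.99% of all genes were called higher and 36.1% lower.

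The signs that turned belong to differences that were not called over the 10 libraries. Between KO DP and WT SP, with KO DP limited to replicates 1 and 2, they included 0.85 for Ccl5, 0.35 for Cxcr3 and 0.48 for Xcl1. Within titles 34 to 37 they were -0.028 for Cx3cr1, 0.54 for Cxcr3 and 0.68 for Xcl1, and within 738 to 741 -0.021 for Ccr2 and -0.63 for Cxcr6. Cxcr3 was at 0.12 after scaling, with or without the range term. With 1 library left out, Cx3cr1 ranged from -0.077 to 1.33, Cxcr3 from -0.51 to 0.097 and Cxcr6 from -0.18 to 0.31. Between KO DP and KO SP, Ccl5 was at 0.50 with the description block and 0.69 with KO DP 1 and 2, uncalled in both, and was called lower with the title block (-2.50, adjusted p = 0.000351) and in the 3 settings of the report. Within 738 to 741, Xcl1 (-1.73, 0.00447), Cx3cr1 (-1.66, 0.0277) and Cxcr3 (-1.26, 0.0334) were called lower there too, as were 52.8% of all genes. None of them was called against KO SP after scaling in that range. With scaling in that range, Ccl3 (2.16, 0.0343) and Cx3cr1 (1.84, 0.0447) were called higher than in WT SP, as were 15.2% of all genes. Between KO SP and WT SP, Ccl1 was at 0.045 with a pseudocount of 0.1, 0.42 with the range term, 0.23 within titles 738 to 741, 0.17 with range term and scaling and 0.19 within 738 to 741 with scaling. There, Ccr7 was at -0.058 after scaling, -0.37 within 738 to 741, -0.24 with range term and scaling and -0.46 within 738 to 741 with scaling, and Ccl5 was at -1.24 with the description block. With 1 library left out, Ccl1 ranged from -0.38 to 0.23, Ccl5 from -0.39 to 0.82 and Ccr7 from -0.30 to 0.23.

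Peaks at expressed receptors numbered 13, 7, 6 and 8 in WT 1, WT 2, KO 1 and KO 2 within 10 kb of a start, and 17, 9, 5 and 7 at 1000 bp or longer. Absolute read depth, unknown for both assays, limits the low members most.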
